A study of Macrobrachium rosenbergii with 20 samples.

Results

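The ovary of adult female giant freshwater prawns was compared with the hepatopancreas of adult females. The comparison takes 10 of the 20 libraries of the study, 5 labelled ovary and 5 labelled hepatopancreas of the female sex, chosen by their tissue and sex labels. Both groups carry the strain label CMr1, are labelled adult and received no treatment that the labels name. The 5 testis and 5 male hepatopancreas libraries were used only to read the female results beside samples that share no library with them. Whether a library stands for 1 animal, and whether equal numbers mark organs of 1 female, is not given in the sources used here, so p-values measure the spread between these samples.

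The hepatopancreas of decapod crustaceans is the digestive gland: its tubules secrete digestive enzymes, absorb nutrients and store lipid, and in females of many decapods it is also a source of the yolk precursor vitellogenin. The ovary produces oocytes, which take up yolk and store maternal RNA for the embryo. A bulk library mixes all cells of an organ, and fewer cells of a type and less RNA per cell cannot be told apart in it.

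The table lists 30260 transcripts by ID, length and estimated count, without gene names, and 0 IDs matched any of 31758 RefSeq genes (assembly ASM4041242v1). Neither the tissue labels nor gene groups could therefore be checked against named markers, and transcripts are described by their level, size of difference, length and ID. The IDs have the form of names given to PacBio Iso-Seq consensus transcripts, which the labels do not state, and in such names HQ and LQ stand for high and low quality, the number after f for full-length reads and the last number for length. Of the 30260 transcripts, 10105 had a count in at least 1 of the 10 libraries and 5639 in all 10. The smallest library was ovary 2 (8670654 counts) and the largest hepatopancreas 4 (15592072), and 7107 transcripts with 10 or more counts in at least 5 of the 10 libraries were tested. A transcript confined to 1 tissue passed this filter only with 10 counts in all 5 libraries of that tissue, which kept out 64 transcripts with such counts in exactly 4 ovary libraries and 68 with such counts in exactly 4 hepatopancreas libraries.

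Single libraries stood apart in ways that bear on what follows. Hepatopancreas 3 had the lowest mean correlation with the other libraries of its tissue (mean Pearson's r 0.80 across transcripts, against 0.83 to 0.87 in the other 4), and hepatopancreas 4 the next lowest. CPM are counts scaled to equal library sums, and correlations and fold distances here used log2 CPM with the TMM factors given below. In hepatopancreas 3, 196 transcripts lay at least 8-fold below the lowest of the other 4 hepatopancreas libraries and 68 at least 8-fold above the highest. In hepatopancreas 4 the corresponding numbers were 9 and 213, while hepatopancreas 1, 2 and 5 had 43 to 64 below and 5 to 8 above. Ovary libraries correlated with each other at r between 0.86 and 0.93, with 13 to 32 such transcripts below and 1 to 47 above. Of the 47 transcripts that stood above in ovary 5, 46 were among the 821 hepatopancreas-high transcripts described below, and results on those are given with this in view.

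Expression was spread over more transcripts in ovary than in hepatopancreas. Levels of different transcripts were compared as TPM, the estimated count divided by the listed length and scaled to the same sum in each library. In ovaries 1 to 5, the most abundant 111, 127, 116, 144 and 136 transcripts held 50% of TPM. In hepatopancreas 1 to 5, 42, 33, 40, 60 and 34 transcripts did. The groups did not overlap, with means of 126.8 ± 13.7 in ovary and 41.8 ± 10.9 in hepatopancreas (SD, n = 5 each, two-sided exact permutation p = 0.00794, Benjamini-Hochberg adjusted 0.0159 over 8 values per library, the raw p being the smallest that 5 against 5 samples allow). The 10 most abundant transcripts of each library held 19.98% ± 1.93 of TPM in ovary and 28.66% ± 3.39 in hepatopancreas (SD, n = 5, exact permutation adjusted p = 0.0159). Every ovary library was below every hepatopancreas library in this share, with 17.4% to 21.97% against 23.95% to 33.4%.

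**Figure D1:**
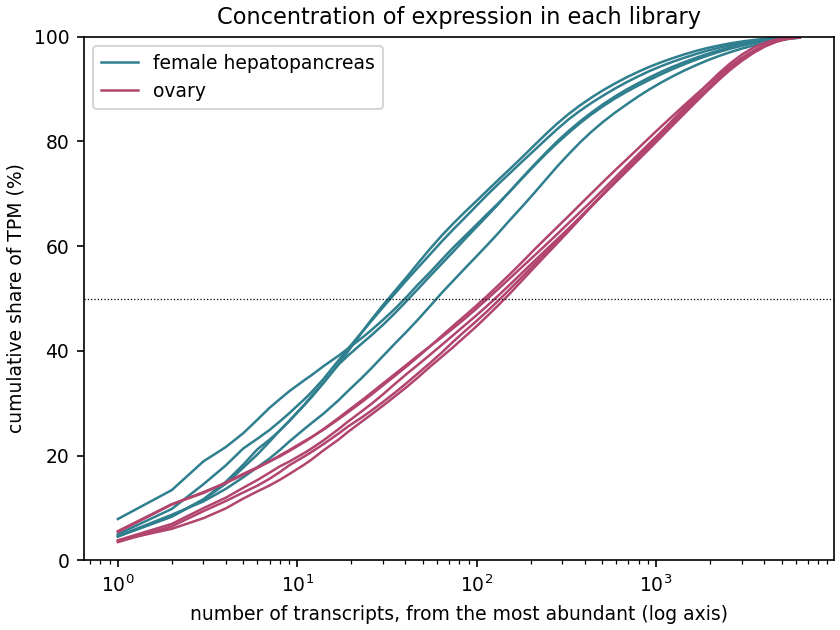
Cumulative share of TPM (in percent, vertical axis) held by the most abundant transcripts, counted from the highest (log horizontal axis), with 1 line per library and the dotted line at 50%. The 5 hepatopancreas lines cross 50% at 33 to 60 transcripts and the 5 ovary lines at 111 to 144.

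For the number of transcripts seen, no difference was called, and the value moved both up and down with single libraries left out. At the depth of the smallest library, 7837 ± 176 transcripts with a count were expected in ovary and 7721 ± 556 in hepatopancreas (SD, n = 5, two-sided exact permutation p = 0.69, adjusted 0.69), with hepatopancreas 4 the highest of all at 8627. The difference (ovary minus hepatopancreas) was 115 transcripts with all libraries and 342 without hepatopancreas 4 (exact permutation adjusted p = 0.0847). It was 2.15 without hepatopancreas 2 and 25.2 without hepatopancreas 5 (exact permutation adjusted p = 0.984 and 0.968). Without hepatopancreas 3 and 4, left out after seeing the data, the difference was 467 (exact permutation adjusted p = 0.0571, 5 against 3 samples). Hepatopancreas 1, 2 and 5 stood at 7481, 7268 and 7361, below all ovaries at 7565 to 7966. The mean transcript length weighted by counts was 1725 ± 27.6 bases in ovary and 1670 ± 142 in hepatopancreas (SD, n = 5, exact permutation adjusted p = 0.544). The weight gain label, whose unit is not stated, averaged 4.862 ± 2.001 in ovary samples and 5.96 ± 1.45 in hepatopancreas samples (SD, n = 5, exact permutation adjusted p = 0.444).

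Most tested transcripts differed between the organs, and on the TMM scale, which aligns the bulk of transcripts, more of the large differences were toward hepatopancreas. EdgeR called 4732 of 7107 transcripts at an adjusted p under 0.05 (66.6%), 33.6% higher in ovary and 33.0% higher in hepatopancreas. The median log2 change (ovary minus hepatopancreas) was -3.25 for hepatopancreas-high transcripts, 2.11 for ovary-high transcripts and -0.03 for all tested. Between 2-fold and 4-fold, 818 were higher in ovary and 516 in hepatopancreas. Between 8-fold and 32-fold the numbers were 349 and 422. From 32-fold to 256-fold they were 166 and 267. At 256-fold or more they were 179 and 554. Tested against a minimum of 2-fold with glmTreat, 48.1% were called: 1616 transcripts were higher in ovary (22.7%) and 1802 in hepatopancreas (25.4%).

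Without a model, the 5 ovary values lay all above or all below the 5 hepatopancreas values for 54.7% of transcripts in TMM-scaled CPM and for 62.2% in CPM by library totals.

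The direction of small differences, and the balance of large ones, depended on the scaling of the libraries. TMM factors were 1.71 to 1.90 in ovary and 0.43 to 0.72 in hepatopancreas. With library totals alone, the log2 changes of all transcripts moved up by a median of 1.66, and ovary-high transcripts made up 78.1% of 5114 calls (50.4% with TMM). All 2385 ovary-high calls kept their call and direction on library totals, but only 1122 of the 2347 hepatopancreas-high ones did, and 156 were called in the opposite direction. On library totals the calls at 32-fold or more were 604 toward ovary and 643 toward hepatopancreas, against 345 and 821 with TMM, so that the excess toward hepatopancreas was mostly lost. At 256-fold or more they were 237 and 419, against 179 and 554. Median log2 changes of the calls on library totals were 2.94 toward ovary and -6.18 toward hepatopancreas.

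**Figure D2:**
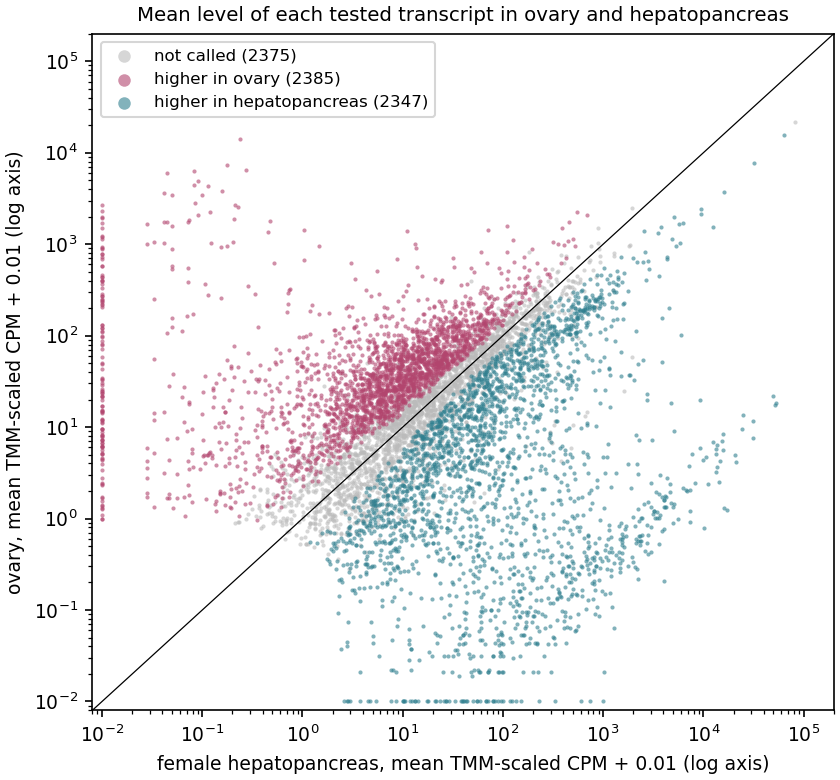
Mean TMM-scaled CPM, plus 0.01, of the 7107 tested transcripts in female hepatopancreas (horizontal, log axis) and ovary (vertical, log axis), coloured by the edgeR call at an adjusted p under 0.05, with the line of equal levels. The 2347 hepatopancreas-high transcripts include 554 at least 256-fold from the line of equal levels, against 179 of the 2385 ovary-high ones (419 and 237 on library totals).

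The most abundant ovary-high transcripts were nearly absent from hepatopancreas and steady among ovaries. Transcript transcript_HQ_Female_transcript14064/f5p0/1257, of 1257 bases, stood at 23770, 30030, 20130, 37590 and 28990 TPM in ovaries 1 to 5. In hepatopancreas 2 and 3 it stood at 0.258 and 0.390 TPM, and hepatopancreas 1, 4 and 5 had no count. The groups thus lay far apart, and the 9 counts in hepatopancreas gave a fold of 56100 (95% interval 29500 to 123000, counting error only), with a log2 change of 15.83 ± 1.55 (SE, edgeR adjusted p = 1.41e-05). No testis or male hepatopancreas library had a count of it.

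The next, transcript_HQ_Male_transcript28731/f6p0/856, of 857 listed bases, stood at 15870, 20030, 16460, 20320 and 19300 TPM in ovaries 1 to 5. It had 1 count each in hepatopancreas 2 and 5, at 0.126 and 0.119 TPM. The ratio on these 2 counts was 114000 (95% interval 31600 to 941000, counting error only), and the log2 change was 16.47 ± 1.14 (SE, edgeR adjusted p = 2.05e-06). Its highest value in a male library was 0.176 TPM, in testis 5. Although its ID carries the word Male, it was thus an ovary transcript among these 20 libraries.

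Ranks 3 to 10 among ovary-high transcripts repeated this pattern. The 10 together held 10.9%, 13.4%, 10.1%, 14.8% and 13.4% of TPM in ovaries 1 to 5, with mean levels from 7447 to 28100 TPM and lengths from 621 to 2371 bases. None passed 0.627 TPM in any hepatopancreas library, or 0.233 TPM in any male library. Among the 5 ovaries the highest value of each was 1.21 to 3.08 times the lowest. The sixth, of 662 bases, varied most, from 4467 TPM in ovary 1 to 13770 in ovary 4. The ninth, of 2371 bases, varied least, from 6946 TPM in ovary 2 to 8381 in ovary 3. The word Male stood in 5 of the 10 IDs, against 2.4% of those tested.

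**Figure D3:**
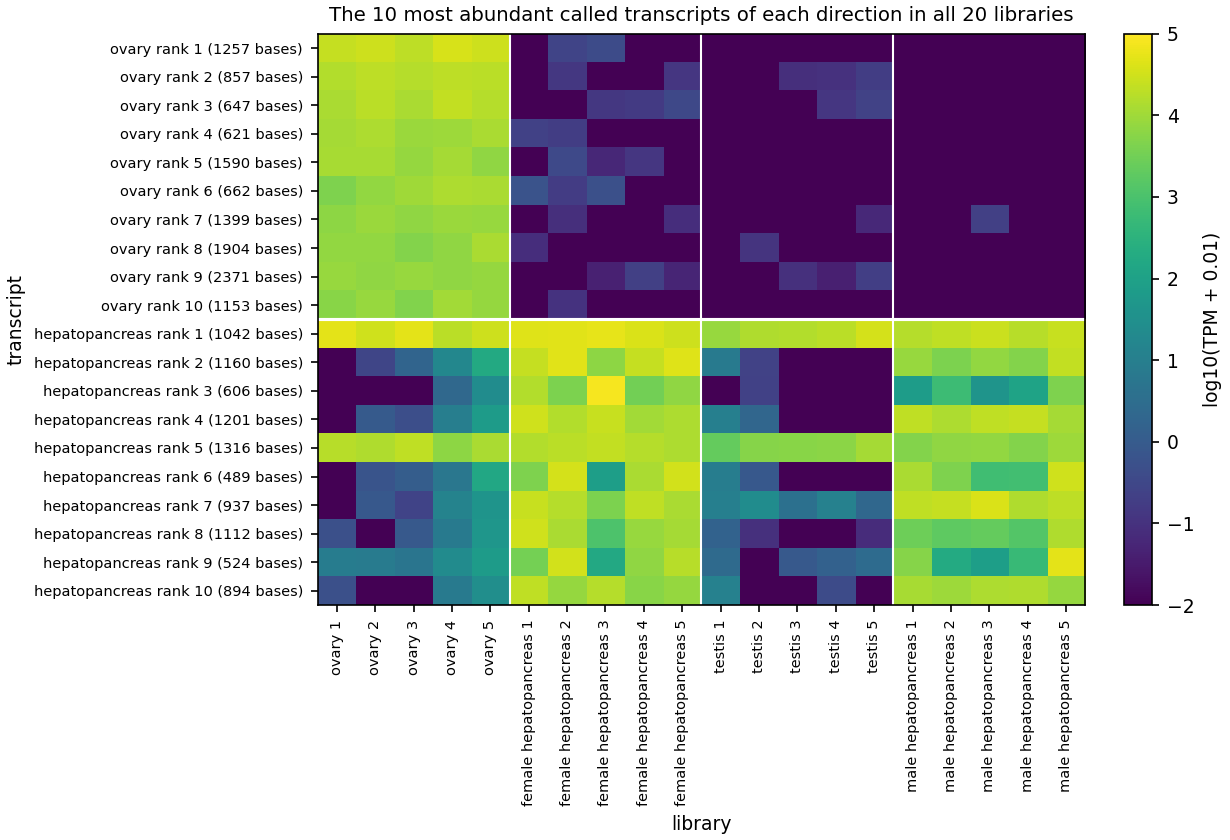
Level of the 10 most abundant called transcripts of each direction whose groups did not overlap in TMM-scaled CPM (rows, with rank and listed length) in all 20 libraries (columns), as log10 of TPM plus 0.01. Ovary ranks 1 to 10 are high in the 5 ovaries and at or under 0.627 TPM elsewhere. Hepatopancreas ranks 1 and 5 are high in every library, and the other 8 are at most 24.8 TPM in testis and higher in ovary 5 than in ovaries 1 to 3. In male hepatopancreas they range from 40.9 TPM (rank 3, library 3) to 50500 TPM (rank 9, library 5).

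In hepatopancreas, the first transcript by the same rule was abundant in both organs. Transcript transcript_HQ_Female_transcript16596/f2p0/1042, of 1042 bases, stood at 45570, 48390, 55370, 41120 and 29480 TPM in hepatopancreas 1 to 5. In ovaries 1 to 5 it stood at 52530, 31390, 51660, 18710 and 30130 TPM, so that the TPM of the groups overlapped, although their TMM-scaled CPM did not. On the TMM scale its log2 change was -2.04 ± 0.75 (SE, edgeR adjusted p = 0.0346), and on library totals it was -0.36 ± 0.57 (edgeR adjusted p = 0.583). Its call was also lost against a minimum of 2-fold (glmTreat adjusted p = 0.0922). It was second in mean TPM in both organs. The first in both, of 1323 bases, averaged 40330 ± 15220 TPM in ovary and 44560 ± 8603 in hepatopancreas (SD, n = 5) and was not called (log2 change -1.94 ± 0.80, edgeR adjusted p = 0.0539). Another, of 1316 bases and sixth in both organs, was hepatopancreas rank 5 and was also called on 1 scale, at -2.05 ± 0.63 with TMM (edgeR adjusted p = 0.0151) and -0.36 ± 0.50 on library totals (edgeR adjusted p = 0.534).

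The second by rank, transcript_HQ_Female_transcript16453/f2p0/1160, of 1160 bases, was a hepatopancreas transcript on either scale. It stood at 24150, 47080, 6505, 24000 and 45760 TPM in hepatopancreas 1 to 5, lowest in hepatopancreas 3. In ovary 1 it had no count, and in ovaries 2 to 5 it stood at 0.277, 1.81, 17.8 and 173 TPM. All hepatopancreas values lay above all ovary values, and the ovaries themselves differed, with ovary 5 highest. Its log2 change was -11.56 ± 2.65 with TMM (SE, edgeR adjusted p = 0.00305), -9.65 on library totals (edgeR adjusted p = 0.00307) and -14.45 without ovary 5. In males it averaged 9420 ± 7325 TPM in hepatopancreas and 1.57 ± 3.38 in testis (SD, n = 5).

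The other hepatopancreas-high transcripts among the first 10 ranged more widely between libraries than those of ovary. Leaving out ranks 1 and 5, the 8 held 15.7%, 17.2%, 13.4%, 9.38% and 14.9% of TPM in hepatopancreas 1 to 5. The highest hepatopancreas value was 2.92 to 437 times the lowest of the same transcript. The third by rank, of 606 bases, reached 78910 TPM in hepatopancreas 3 against 3151 to 15970 in the other 4. The sixth, of 489 bases, went the other way, with 82.6 TPM in hepatopancreas 3 against 4328 to 36120 in the others. The ninth, of 524 bases, also had its lowest value there, 167 TPM against 3392 to 32230. Hepatopancreas 3 held the highest value of the third and the lowest value of ranks 2, 6, 7, 8 and 9.

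Larger sets showed the same contrast in how much of each library they held. The 345 transcripts at least 32-fold higher in ovary took 27.05%, 29.3%, 23.85%, 33.5% and 29.0% of counts in ovaries 1 to 5. In hepatopancreas they took 0.00794% to 0.0142%. The 821 transcripts at least 32-fold higher in hepatopancreas took 57.3%, 64.2%, 45.7%, 54.6% and 67.8% of counts in hepatopancreas 1 to 5. In ovaries 1 to 5 they took 0.192%, 0.278%, 0.202%, 0.168% and 0.512%, so that the small share in ovary was largest in ovary 5. Of the 54.6% in hepatopancreas 4, 7.28% came from 49 of the 821, which were among the 213 standing out in that library. Both sets are those of the TMM scale, chosen by this comparison, and their shares in the female libraries are a description of it.

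Single ovary libraries differed in how many hepatopancreas transcripts they held. Of the 100 most abundant of the 821, all 100 had a count in ovary 5, 96 in ovary 4, and 49, 56 and 60 in ovaries 1, 2 and 3. Their summed level was 3006 TPM in ovary 5 against 507.5 to 649.6 TPM in ovaries 1 to 4. That is 0.655% of their mean sum in hepatopancreas for ovary 5 and 0.111% to 0.141% for the others. The 100 most abundant of the 345 ovary-high transcripts stood in hepatopancreas at 0.0111% to 0.0208% of their mean sum in ovary. The part of RNA from 1 organ in libraries of the other was not tested. Without ovary 5, edgeR called 4423 transcripts, against 4732 with it. Without ovary 1, 2, 3 or 4 it called 4454, 4448, 4653 or 4485, so a drop in calls was not particular to ovary 5.

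Transcripts with 10 or more counts in every library of 1 organ and none in the other organ were few. The 118 transcripts with 10 or more counts in every ovary and none in any hepatopancreas library took 5.50% ± 0.78 of ovary counts (SD, n = 5). The 57 with 10 or more counts in every hepatopancreas library and none in any ovary took 0.283% ± 0.093 of hepatopancreas counts. Estimated counts can split reads between near-identical transcripts, so a single transcript's level is less certain where copies of it are in the reference.

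**Figure D4:**
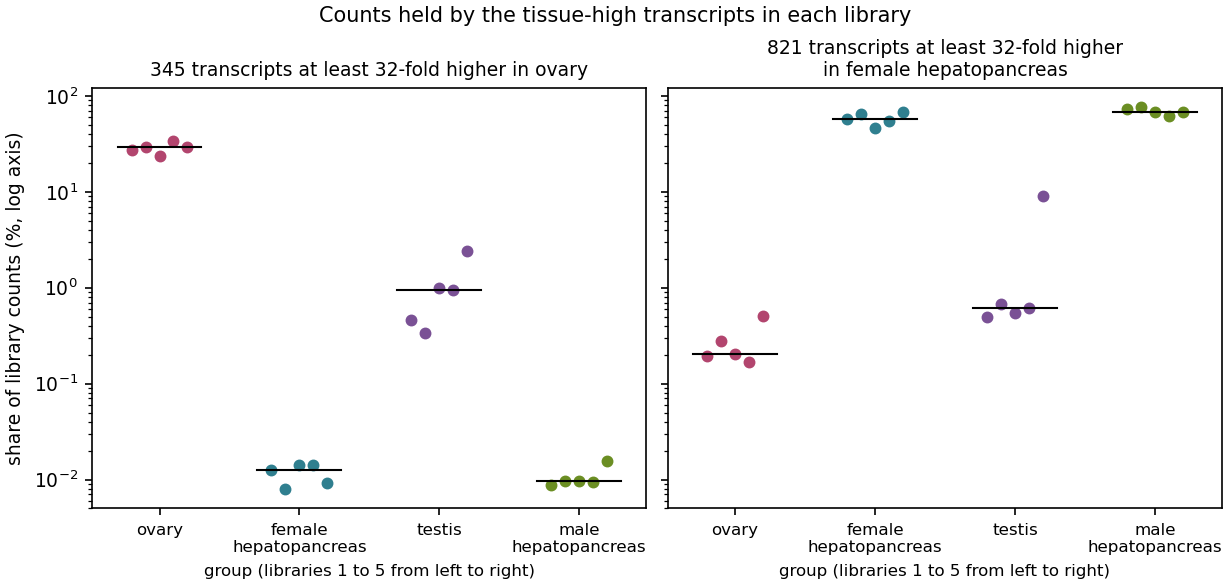
Share of library counts (in percent, log axis) held by the 345 transcripts at least 32-fold higher in ovary (left) and the 821 at least 32-fold higher in female hepatopancreas (right), with 1 point per library, libraries 1 to 5 from left to right in each group, and a bar at the median. The hepatopancreas set holds 45.7% to 75.6% in hepatopancreas of both sexes, while the ovary set holds 23.85% to 33.5% in ovary and at most 2.40% in testis.

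The male libraries had no part in these calls. The 821 hepatopancreas-high transcripts took 69.2% ± 5.1 of counts in male hepatopancreas (SD, n = 5). In testes 1 to 4 they took 0.4999% to 0.681%, and in testis 5 they took 9.02%. Of that 9.02%, 7.84% came from 49 transcripts that were among the 213 standing out in hepatopancreas 4, and the other 772 took 1.19%. The 345 ovary-high transcripts took 0.336% to 2.40% of testis counts and 0.00869% to 0.0157% of male hepatopancreas counts.

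Among the hepatopancreas-high transcripts, 39 of 180 under 2-fold in females and 508 of 554 at 256-fold or more were also called higher in male hepatopancreas. The male organs differed by edgeR for 48.1% of 7094 transcripts, with 25.1% toward testis and 23.0% toward male hepatopancreas. Over the 6520 tested in both sexes, 23.5% were higher in testis and 23.7% in male hepatopancreas. Of hepatopancreas-high transcripts between 2-fold and 4-fold in females, 160 of 516 were higher in male hepatopancreas and 114 in testis. Between 32-fold and 256-fold, 168 of 267 were higher in male hepatopancreas and 29 in testis. At 256-fold or more, 8 were higher in testis. Of those 554, 528 reached 1 CPM in at least 4 of 5 male hepatopancreas libraries and 59 in at least 4 of 5 testes. Most thus passed the male filter through hepatopancreas, where a call toward it was then largely fixed, and the counts are a description.

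Ovary-high transcripts with the largest differences mostly had too few counts in males to be tested. Of the 179 at 256-fold or more, 8 passed the filter in males, and 9 reached 1 CPM in at least 4 of 5 testes. Of the 166 between 32-fold and 256-fold, 73 passed, and 52 of the 166 were called higher in testis and 1 in male hepatopancreas. In this bin 66 reached 1 CPM in at least 4 of 5 testes and 14 in as many male hepatopancreas libraries, so that most passed through testis and these counts too are a description. Between 8-fold and 32-fold, 276 of 349 passed, with 150 called higher in testis and 3 in male hepatopancreas. Between 2-fold and 4-fold, 800 of 818 passed, with 216 called higher in testis (27% of the 800) and 35 in male hepatopancreas (4.4%). Over the 6520 transcripts tested in both sexes these shares were 23.5% and 23.7%, so the share toward testis in this bin was near that of all transcripts.

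The difference between females and males was itself tested for each transcript in a fit of all 20 libraries on the TMM scale. There 16.3% of 8043 transcripts had a higher gonad minus hepatopancreas difference in females and 21.2% a lower one. On library totals the calls changed in part, and the counts by direction given here were not taken on that scale. Of the 2385 ovary-high transcripts, the female difference was called larger than the male one for 1058 and smaller for 38. Of the 2347 hepatopancreas-high transcripts, the female difference was called more negative for 957 and less negative for 77. At 256-fold or more toward hepatopancreas, only 85 of 554 were called more negative in females and 8 less negative. A transcript without counts in male libraries has no estimable difference there, which touches most of the 179 ovary-high transcripts at 256-fold or more, of which 25 were called. The female calls entered this test through the same libraries, so these counts describe where the sexes were set apart and are not independent of the calls.

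**Figure D5:**
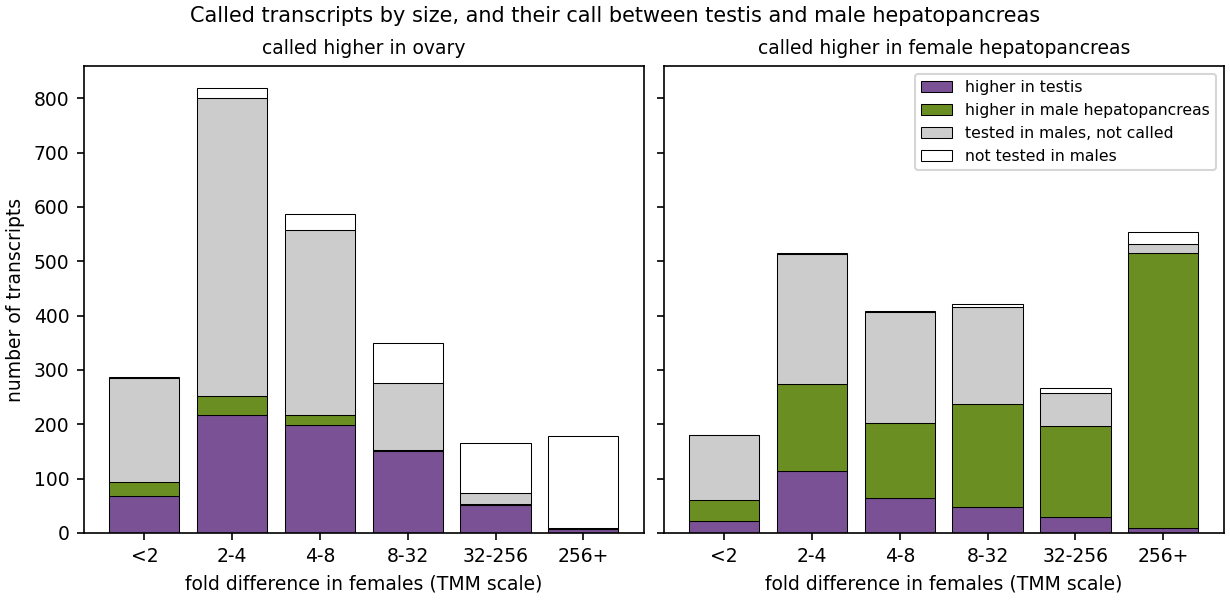
Number of transcripts called higher in ovary (left) or in female hepatopancreas (right), by fold difference on the TMM scale, with bars divided by the edgeR call between testis and male hepatopancreas. At 256-fold or more, 508 of 554 hepatopancreas-high transcripts were also higher in male hepatopancreas, while 8 of 179 ovary-high transcripts were tested in males at all.

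What the IDs record differed between the directions, while length differed little. Median length was 1561 bases for ovary-high, 1632 for hepatopancreas-high and 1610 for all tested transcripts. At 32-fold or more the medians were 1414 and 1519. An f number of 10 or more was found in 15.3% of ovary-high and 24.0% of hepatopancreas-high transcripts, against 19.0% of those tested, and in 6.7% and 27.0% at 32-fold or more. LQ stood in 3 ovary-high IDs and 54 hepatopancreas-high IDs, of 69 among those tested. The word Male stood in 41 of the 345 ovary-high transcripts at 32-fold or more (11.9%) and in 15 of the 821 hepatopancreas-high ones (1.8%). These counts describe the transcripts and were not tested, since transcripts are not replicates.

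Over whole libraries the same 2 ID features separated the organs. Male IDs took 15.7% to 17.7% of counts in ovary and 4.86% to 12.4% in hepatopancreas, highest in hepatopancreas 3, a difference of 8.69 percentage points (two-sided exact permutation p = 0.00794, adjusted 0.0159). LQ IDs took 2.89% ± 0.92 of counts in ovary and 8.86% ± 0.55 in hepatopancreas (SD, n = 5, exact permutation adjusted p = 0.0159), again without overlap.

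The spread between libraries was larger in hepatopancreas than in ovary with hepatopancreas 3 and 4 included, and close to that of ovary without them. Over 2968 transcripts with a mean of 10 or more TMM-scaled CPM in both organs, the median SD between libraries was 0.34 on the log2 scale in ovary and 0.44 in hepatopancreas. Over hepatopancreas 1, 2 and 5 alone it was 0.33. The SD was larger in hepatopancreas for 64.2% of these transcripts with all libraries, and for 48.8% without hepatopancreas 3 and 4. Hepatopancreas 3 and 4 had the lowest correlations of their tissue, so leaving them out lowers the spread, and no ovary was left out likewise. An SD over 3 libraries was also set against an SD over 5, so these values do not show equal spread. Correlations between an ovary and a hepatopancreas library ran from 0.08 to 0.25.

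The transcripts that set hepatopancreas 3 and 4 apart were of different kinds. The 196 that lay low in hepatopancreas 3 took 0.526% of its counts, against 13.8% to 32.5% in the other female hepatopancreas libraries and 23.4% to 44.7% in male ones. Of these 196, 155 were called hepatopancreas-high, against 33.0% of all tested transcripts. The 213 that stood out in hepatopancreas 4 took 10.4% of its counts, against 0.045% to 0.114% in the other 4. They took 0.47% to 0.802% of counts in ovaries and 0.0681% to 0.117% in male hepatopancreas. In testes 1 to 4 they took 0.64% to 1.02%, and in testis 5 they took 9.58%, so their high share was not particular to hepatopancreas 4. Of these 213, 121 were not called, where 66.6% of all tested transcripts were called. Another 72 were called hepatopancreas-high, a share near the 33.0% of all tested, and 49 of the 72 were at 32-fold or more. The 49 took 7.28% of counts in hepatopancreas 4, against 0.0126% to 0.0439% in the other 4 and 0.00311% to 0.0477% in ovary. Their summed share was thus high in 1 female hepatopancreas library. The sets of 196 and 213 were chosen by these values. With hepatopancreas 3 and 4 left out, an alternative added after seeing the data, edgeR called 4590 transcripts, 4265 of them among the 4732, with 478 at least 32-fold higher in ovary and 766 in hepatopancreas.

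On each scale, a set of transcripts showed no difference of 2-fold or more within its error, and the set depended on the scaling. The 95% interval of the log2 change lay within 2-fold in either direction for 586 of the 7107 tested transcripts with TMM and for 198 on library totals. For the other transcripts that were not called, the interval reached past 2-fold, and they are not shown to be alike in the organs.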

How the data were processed

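RNA was sequenced from ovary, testis and hepatopancreas, with total RNA and a strand-specific library kit per the labels. The values deposited by the authors are not normalized: each is an estimated count per transcript, in 1 table with transcript lengths, with a counting method not given in the sources used here. The submitters' processing notes name Bowtie 0.12.2 and DESeq 1.10.1, with no role. Estimated counts were rounded. Transcripts with 10 or more counts in at least 5 libraries of a fit were tested with edgeR 4.0.16 in R 4.3.3 (TMM scaling, quasi-likelihood test, Benjamini-Hochberg adjustment, adjusted p under 0.05). The SE is the log2 change divided by the square root of F. Differences beyond 2-fold were tested with glmTreat. TPM was computed from counts and listed lengths. Values per library were compared with exact permutation tests in SciPy 1.17.1. Intervals (95%) of folds cover counting error only. Correlations, SDs on the log2 scale and 8-fold distances between libraries used log2 TMM-scaled CPM with a prior count of 2. The libraries and the transcripts described were chosen with earlier results of these data known. The rule named the first 2 called transcripts per direction by mean TPM whose groups did not overlap in TMM-scaled CPM. Marker lists of cell types could not be tested because the IDs carry no gene names. Alternatives included DESeq2 1.42.0, other scalings and filters, a fit with the weight gain label, a replicate block, and fits without each library in turn.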

Additional observations from a re-analysis of the deposited data

Results flagged for a closer look

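Of 46 groups of 5 libraries examined for a value far from the rest, 4 had one, where chance gives about 1 in 20. The groups share libraries and transcripts, so the 4 are not independent and no excess over chance is read from them. In testis 5, the transcripts at least 32-fold higher in female hepatopancreas took 9.02% of counts, far above 0.4999% to 0.681% in testes 1 to 4. In male hepatopancreas 5, the transcripts at least 32-fold higher in ovary took 0.0157% of counts, far above 0.00869% to 0.00961% in the other 4. In ovary 5, the hepatopancreas transcript transcript_HQ_Female_transcript16453/f2p0/1160 stood at 173 TPM, far above the other ovaries, of which ovary 4 was next at 17.8 TPM. Also in ovary 5, the 100 most abundant hepatopancreas transcripts summed to 3006 TPM, far above 507.5 to 649.6 TPM in ovaries 1 to 4.

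The gonad against hepatopancreas difference itself differed between females and males for 3013 of 8043 transcripts (37.5%) by edgeR's interaction test at an adjusted p under 0.05, with TMM. On library totals 2693 were called, 2259 of them among the 3013.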

How the results depend on the processing

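All 170 leave-one-out values that summarise a comparison kept their direction and side of the threshold, or stayed within 1.5 times for counts. So did 86 of 93 under other settings. For the 4 called differences in values per library, leaving out 1 library could not change the side of the threshold, because the groups did not overlap. On library totals without TMM, 3992 transcripts were higher in ovary and 1122 in hepatopancreas, with 604 at least 32-fold higher in ovary and 643 in hepatopancreas. Without hepatopancreas 3 and 4, an alternative added after seeing the data, the 4 differences between organs kept their size but not their call (exact permutation adjusted p = 0.0571, 5 against 3 samples): 90.5 transcripts for 50% of TPM, -8.66 percentage points in the 10 highest, 10.4 in Male IDs and -5.66 in LQ IDs. The groups still did not overlap in these 4 values. Their raw p was the smallest that 5 against 3 samples allow, so the lost call does not show weaker differences. Leaving out 1 library gave 4423 to 4777 calls. The hepatopancreas transcript transcript_HQ_Female_transcript16596/f2p0/1042 lost its call on library totals (-0.36), with no filter (-1.76), with the replicate block (-2.11), without hepatopancreas 3 and 4 (-2.11), and without hepatopancreas 1, 2 or 4 or ovary 2 or 4, with a leave-one-out range of -2.25 to -1.86. The cause was not tested.

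Whether replicate numbers pair the samples is unsettled. Deviations of same-numbered libraries correlated at 0.25, 0.15, 0.30, -0.08 and 0.40, against at most 0.09, 0.17, 0.05, 0.17 and 0.05 with another number. Ovaries 1, 2, 3 and 5, but only hepatopancreas 1, 3 and 5, correlated best with their own number, a hint of pairing from the data. Number 4 did not, and the labels state no pairing. The weight gain label also differed between the organs for every number, with 2.14, 5.71, 3.96, 4.98 and 7.52 in ovaries 1 to 5. In hepatopancreas 1 to 5 it was 4.33, 6.78, 7.05, 7.21 and 4.45. The block was therefore kept as an alternative. With the number as a replicate block, edgeR called 4617 transcripts (4366 shared with the fit without it), 2709 for the interaction and 3237 in males. Depth limits low transcripts: 0 counts in a library of 8670654 allows up to 3.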

Other observations

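A set of 44 transcripts lay at least 8-fold above the other ovaries in ovary 3. It took 0.962% of counts in ovary 3 and 0.0246% to 0.0492% in the other ovaries. The same set took 0.556% of counts in hepatopancreas 3, against 0.0455% to 0.114% in the other female hepatopancreas libraries. Of these 44 transcripts, 32 were not called between the organs, where 66.6% of all tested transcripts were called. The set was chosen by its values in ovary 3, and its shares are descriptions with no test.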
